A study of Homo sapiens with 6 samples.

Results

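The genes described here are HIF1A, which encodes the oxygen-regulated subunit of the hypoxia-inducible factor HIF-1, and 9 genes known as its targets under low oxygen (CA9, BNIP3, BNIP3L, EGLN1, EGLN3, ANKRD37, NDRG1, KDM3A and ADM). They were chosen by symbol, and all 10 were among the 16376 genes of the deposited expression table. RNA was sequenced from HOS cells, a human osteosarcoma line labelled as wild type, in 2 groups of 3 libraries: cells given Agrimol B, a phenolic compound of agrimony plants, for 24 h, and control cells whose treatment is labelled as none. Both groups were of the same line, and neither a solvent for the control cells, nor the dose, nor the oxygen level of the culture is given in the sources used here. The labels do not say that the libraries came from separate cultures, so p-values reflect no more than the spread among these 6 libraries, and that spread may be technical.

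HIF-1 is a pair of proteins. In oxygen, prolyl hydroxylases of the EGLN family mark the alpha subunit, the VHL ubiquitin ligase binds the marked protein, and the proteasome destroys it. When oxygen is short the alpha subunit persists, pairs with ARNT and binds short DNA elements in genes for glucose use, acid handling, mitophagy and vessel growth. EGLN3 and EGLN1 are themselves targets, which closes a feedback loop. Because this control acts mainly on the protein, the level of HIF1A mRNA is a different quantity from HIF-1 activity, which was not measured here.

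The 10 genes did not move as a block with Agrimol B. BNIP3, KDM3A and ANKRD37 rose, while HIF1A, EGLN3, ADM and BNIP3L fell. EGLN1 did not pass the test, with nearly equal means, and NDRG1 did not pass it amid a wide spread between libraries. CA9 was at or close to 0 in all 6 libraries and was not tested. Of the 9 tested genes, 3 rose and 4 fell, against 30.6% of all 12143 tested genes that rose and 21.4% that fell (52.0% in either direction). The excess of rises over falls among all genes depends on scaling: 3713 rose and 2598 fell as tested, while after median-ratio scaling 3089 rose and 3148 fell, and after quantile normalization 3103 rose and 3084 fell. The median log2 difference was -0.16 over the 9 genes and 0.07 over all tested genes. For 7 of the 9 genes the 3 Agrimol B values did not overlap the 3 control values, as was true of 62.2% of all tested genes. Tests were made with limma on log2(FPKM + 1), where FPKM is a fragment count scaled to transcript length and to the library, and a gene was called changed at an adjusted p under 0.05. Calls of HIF1A, EGLN3, BNIP3 and KDM3A held under all alternative settings run (13 for HIF1A, BNIP3 and KDM3A, and 12 for EGLN3). Those of BNIP3L, ANKRD37 and ADM did not, and without Agrimol B replicate 1 only 4 of the 9 genes were called.

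**Figure D1:**
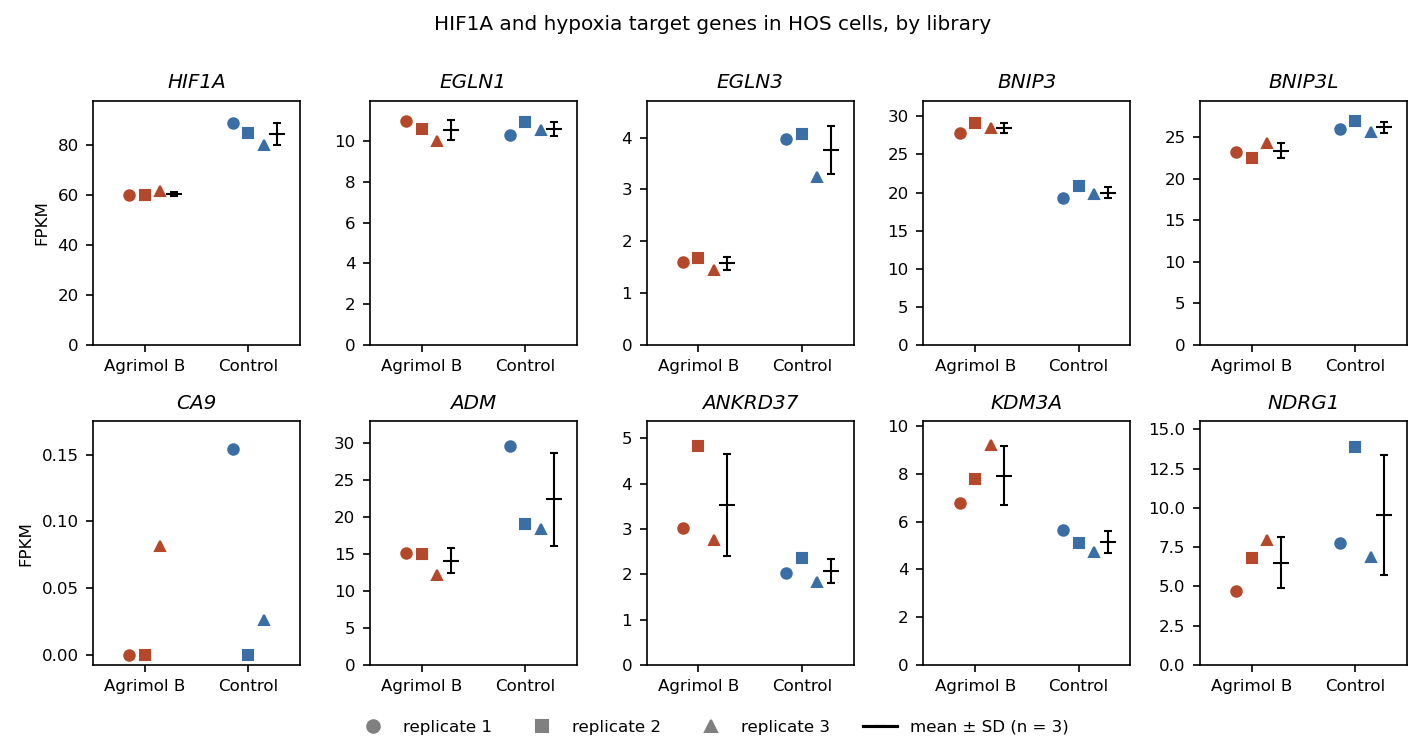
FPKM of each of the 10 genes in every library, with a panel and a linear axis of its own for each gene; symbols mark replicate numbers, and the bar beside them is the mean ± SD of 3 libraries, left out for CA9. The groups are apart in 7 panels, and overlap for EGLN1, NDRG1 and CA9.

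The genes differ in the sequence before their transcription starts. HIF-1 binds around a core of 5 letters, ACGTG or GCGTG, which reads CACGT or CACGC when it lies on the other strand. The 250 bases before the start are printed for the 3 genes that rose and for 3 that fell, because these 2 sets moved in opposite directions. They run 5′ to 3′ on the strand of the gene (RefSeq, GRCh38.p14), with every core in capitals. Of the 10 genes, 8 had an entry, NDRG1 and BNIP3L being the others, and where a gene had several entries the most upstream was used. These starts differ from the gene ends in GENCODE 29, the annotation used here for gene positions. By that annotation the windows of ADM, ANKRD37, EGLN1, EGLN3 and KDM3A lie inside the gene. Those of BNIP3 and CA9 lie partly inside it, and that of HIF1A ends right before it.
ANKRD37, chr4:185396591-185396840, plus strand: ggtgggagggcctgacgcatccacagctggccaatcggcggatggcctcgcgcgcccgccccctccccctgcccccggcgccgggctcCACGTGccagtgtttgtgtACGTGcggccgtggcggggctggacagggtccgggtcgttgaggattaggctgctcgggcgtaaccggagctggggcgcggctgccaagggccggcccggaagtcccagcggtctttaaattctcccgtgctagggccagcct
BNIP3, chr10:131981924-131982173, minus strand: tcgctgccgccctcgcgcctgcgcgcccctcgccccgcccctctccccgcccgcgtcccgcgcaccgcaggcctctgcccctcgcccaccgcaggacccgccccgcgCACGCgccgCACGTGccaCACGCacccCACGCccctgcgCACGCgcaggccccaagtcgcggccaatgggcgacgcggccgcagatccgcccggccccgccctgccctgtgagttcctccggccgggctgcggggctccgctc
KDM3A, chr2:86441121-86441370, plus strand: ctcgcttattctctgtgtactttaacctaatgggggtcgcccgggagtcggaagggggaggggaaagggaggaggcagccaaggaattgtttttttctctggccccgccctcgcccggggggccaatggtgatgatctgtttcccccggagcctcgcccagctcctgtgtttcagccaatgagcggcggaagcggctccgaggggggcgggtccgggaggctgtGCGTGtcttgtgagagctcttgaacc
HIF1A, chr14:61695263-61695512, plus strand: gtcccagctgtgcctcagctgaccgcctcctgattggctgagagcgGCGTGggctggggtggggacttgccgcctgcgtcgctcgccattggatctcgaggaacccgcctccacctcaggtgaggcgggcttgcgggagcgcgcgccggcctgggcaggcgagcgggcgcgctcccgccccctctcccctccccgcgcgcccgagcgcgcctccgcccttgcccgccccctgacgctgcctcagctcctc
EGLN3, chr14:33951075-33951324, minus strand: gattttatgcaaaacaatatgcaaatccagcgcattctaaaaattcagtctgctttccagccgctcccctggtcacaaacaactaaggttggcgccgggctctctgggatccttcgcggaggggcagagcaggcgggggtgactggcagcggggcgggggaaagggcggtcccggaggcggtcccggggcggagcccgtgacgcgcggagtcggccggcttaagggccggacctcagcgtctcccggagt
ADM, chr11:10304823-10305072, plus strand: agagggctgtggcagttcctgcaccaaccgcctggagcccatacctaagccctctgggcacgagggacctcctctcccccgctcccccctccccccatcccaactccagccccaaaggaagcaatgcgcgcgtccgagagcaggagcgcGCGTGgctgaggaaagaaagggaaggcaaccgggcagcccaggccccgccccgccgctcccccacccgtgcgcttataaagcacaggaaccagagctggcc
A core was found in 7 of the 8 windows. This count is to be read against 43.2% of all 35116 promoters in the RefSeq table and 55.7% of 14281 promoters of tested genes. The comparison is loose, since these shares count every start of a gene and the windows only 1. CA9, among the 8, was not a tested gene. BNIP3 held 5 cores packed within 143 to 104 bases before the start (positions of the first letter), and ANKRD37 held 2, at 162 and 143 bases. At least 2 cores were present in 24.2% of the promoters of tested genes. In both genes 1 of the cores lies inside the palindrome CACGTG, counted here as 1 core, which is also an E-box of the kind that MYC and related factors bind. That palindrome occurred in 8.4% of promoters of tested genes. Single cores stood at 26 bases in KDM3A (its other, downstream start has 1 at 116 bases), 101 in ADM, 204 in HIF1A, 18 in CA9 and 13 in EGLN1. The other, downstream start of HIF1A has 0. EGLN3 held none in these 250 bases, which says nothing of the rest of the gene. Genes with a core were among those that rose and those that fell. Since EGLN3 alone lacked a core in its window, the presence of these letters could not be compared between the directions.

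HIF1A mRNA was lower with Agrimol B. HIF1A (chromosome 14, 61695513 to 61748259 on GRCh38, plus strand) stood at 59.8, 59.7 and 61.4 FPKM in the Agrimol B libraries, against 88.7, 84.8 and 79.9 FPKM in the control libraries. All 3 treated values lie close together and below every control value. The mean was 60.3 ± 0.933 FPKM with Agrimol B and 84.5 ± 4.42 FPKM in control cells (SD, n = 3 libraries each), a level 71.4% of control (log2 difference -0.48, SE 0.05, limma adjusted p = 0.000486). Of all tested genes, 10.7% had a log2 difference as low or lower. HIF1A was the most abundant of the 10 genes in both groups and in control cells exceeded 94.6% of all tested genes. It overlaps antisense genes, and since the sources used here do not say whether the authors' counting used strand, reads of such partners cannot be told apart from its own. A smaller share of cells that express a gene and less of its RNA per cell cannot be told apart in these bulk libraries.

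Another oxygen-regulated subunit, EPAS1 (HIF-2 alpha), was higher. It had 38.2, 37.9 and 36.6 FPKM in Agrimol B libraries, against 20.4, 28.8 and 28.8 FPKM in control libraries (log2 difference 0.53, SE 0.14, adjusted p = 0.0183 by limma). Control replicate 1 lay below the other controls, and without it the log2 difference was 0.37 (adjusted p = 0.00300). That call was lost without Agrimol B replicate 1 or 2 (adjusted p = 0.0540 and 0.0521; range over alternatives 0.00300 to 0.0540). The opposite moves of EPAS1 and HIF1A changed their balance within each library. The EPAS1 to HIF1A ratio of FPKM was 0.638, 0.634 and 0.597 with Agrimol B, against 0.229, 0.340 and 0.361 in control cells. The lowest treated ratio was well above the highest control ratio. The summed level of these 2 subunits changed less, at 97.85 ± 0.201 FPKM with Agrimol B and 110.5 ± 2.7 FPKM in control cells. Of the partners that both subunits need, ARNT2 rose to 10.6 ± 0.323 FPKM, against 8.34 ± 0.0996 FPKM in control cells (adjusted p = 0.00224). ARNT itself had overlapping values, 14.5 to 18.0 FPKM with Agrimol B and 13.4 to 14.9 FPKM in control cells (adjusted p = 0.177).

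Of the prolyl hydroxylases, EGLN3 fell and EGLN1 did not pass the test. EGLN3, a strongly hypoxia-induced sensor, had 1.60, 1.67 and 1.44 FPKM with Agrimol B, against 3.98, 4.07 and 3.23 FPKM in control cells. Every treated value was below the lowest control value by a wide margin. Its mean was 2.40-fold lower with Agrimol B, at 1.57 ± 0.120 FPKM, than the 3.76 ± 0.458 FPKM of control cells (SD, n = 3 each; log2 difference on the FPKM + 1 scale -0.89, SE 0.09, limma adjusted p = 0.000500). That scale understates the change of so low a gene, and with a pseudocount of 0.1 the log2 difference was -1.20. EGLN3 showed the largest difference of the 9 tested genes, with 2.68% of all tested genes as low or lower. One long annotated form of EGLN3 overlaps SPTSSA on the same strand. SPTSSA moved the other way, with 9.55 to 10.8 FPKM in Agrimol B libraries and 6.51 to 7.26 FPKM in control libraries.

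EGLN1, the main sensor in most cells (chromosome 1, minus strand), had 11.0, 10.6 and 10.03 FPKM with Agrimol B, against 10.3, 10.9 and 10.5 FPKM in control cells. These groups overlapped fully. The log2 difference was -0.0062 with a 95% interval of -0.14 to 0.12 (adjusted p = 0.932). The EGLN3 to EGLN1 ratio was 0.145, 0.158 and 0.144 with Agrimol B, against 0.387, 0.372 and 0.307 in control cells, so that the message of these sensors was shifted towards EGLN1. EGLN2 varied widely, between 16.5 and 28.5 FPKM in Agrimol B libraries and between 16.7 and 30.4 FPKM in control libraries, and did not pass the test (adjusted p = 0.592). Its values are uncertain, since the table also lists a read-through gene that contains it.

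Of 8 further genes of HIF hydroxylation and degradation, EGLN2 among them, 2 rose and 2 fell, against 30.6% and 21.4% of all tested genes. In either direction their share of calls was near the 52.0% of all tested genes. VHL, which recognises the hydroxylated subunit, rose to 14.6 ± 1.24 FPKM, against 11.3 ± 0.281 FPKM in control cells (adjusted p = 0.00746). RBX1, the RING protein of the same ligase, fell to 30.7 ± 1.12 FPKM, against 42.0 ± 1.07 FPKM in control cells (adjusted p = 0.000522). The adaptor ELOB fell 1.15-fold and the transmembrane prolyl hydroxylase P4HTM rose 1.28-fold. The call of ELOB was lost without Agrimol B replicate 1 or 3 or control replicate 2 (adjusted p = 0.0547 to 0.0597; 0.00739 to 0.0597 over all alternatives). The call of P4HTM was lost in 5 of 13 alternatives (adjusted p 0.0105 to 0.0573), and P4HTM overlaps WDR6. HIF1AN, the asparaginyl hydroxylase that blocks coactivator binding, CUL2, the scaffold of the ligase, and ELOC, its other elongin, did not pass the test (adjusted p = 0.0809, 0.486 and 0.131). ELOC passed with the replicate block (adjusted p = 0.0399) and without Agrimol B replicate 1 (adjusted p = 0.0338), in a range of 0.0338 to 0.307. Of 4 cofactors, the acetyltransferase EP300 rose to 23.0 ± 0.0592 FPKM, against 19.6 ± 0.971 FPKM in control cells (adjusted p = 0.0105). CITED2, which competes with HIF for that coactivator, fell to 12.2 ± 0.554 FPKM, against 14.8 ± 0.969 FPKM in control cells (adjusted p = 0.0147).

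BNIP3 and BNIP3L encode related proteins of the outer mitochondrial membrane that recruit autophagosomes, and both are known as hypoxia targets. Here they moved in opposite directions. BNIP3 (chromosome 10, 131966455 to 131982013, minus strand) had 27.9, 29.2 and 28.5 FPKM with Agrimol B, against 19.3, 20.8 and 19.8 FPKM in control cells. A wide gap separates the groups, and each is tight. The mean was 1.43-fold higher with Agrimol B, at 28.5 ± 0.642 FPKM, than the 20.0 ± 0.746 FPKM of control cells (SD, n = 3 each; log2 difference 0.49, SE 0.05, limma adjusted p = 0.000364). BNIP3L, also called NIX and overlapped on the other strand by PNMA2, had 23.3, 22.6 and 24.4 FPKM with Agrimol B, against 26.0, 27.0 and 25.6 FPKM in control cells. Its groups did not overlap either, but the gap between them was small. The mean of BNIP3L was 89.3% of that in control cells (log2 difference -0.16, SE 0.05, adjusted p = 0.0324). That call was lost with the replicate block (adjusted p = 0.0886) and without any single library except Agrimol B replicate 3 (adjusted p 0.0567 to 0.0973; 0.00817 to 0.0973 over all alternatives).

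The order of the pair was turned round between the groups. The BNIP3 to BNIP3L ratio was 1.20, 1.29 and 1.17 with Agrimol B, against 0.744, 0.770 and 0.771 in control cells. Their summed level was 51.9 ± 0.858 FPKM with Agrimol B and 46.18 ± 1.40 FPKM in control cells. FPKM is scaled to transcript length, but the annotation behind it is not named, and both genes overlap genes on the other strand. Levels of different genes can therefore be compared only roughly. Other genes share the BNIP name, which does not make them relatives of this pair. BNIP1, which acts in membrane fusion at the endoplasmic reticulum, rose to 15.6 ± 0.256 FPKM, against 11.6 ± 1.54 FPKM in control cells (adjusted p = 0.0121). BNIP2 overlapped between the groups (adjusted p = 0.167), and BNIPL was at most 0.195 FPKM in any library.

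**Figure D2:**
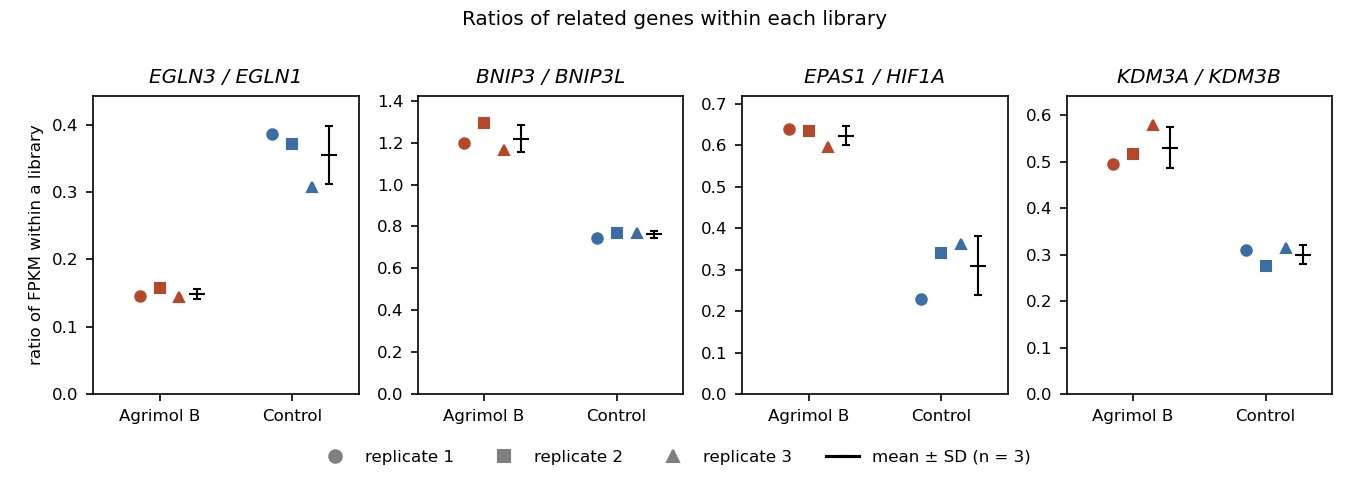
Ratio of the FPKM of 2 related genes within each library, on linear axes that start at 0; symbols mark replicate numbers and bars the mean ± SD of 3 libraries per group. EGLN3 / EGLN1 is lower in all 3 Agrimol B libraries, and BNIP3 / BNIP3L, EPAS1 / HIF1A and KDM3A / KDM3B are higher.

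The 4 ratios plotted were chosen after the values of these genes were seen. Each was apart between the groups, with 3 libraries on either side. The exact two-sided permutation test gave p = 0.1 for every ratio, also after adjustment over the 4, which is the smallest p that 3 against 3 libraries allow. No ratio can therefore pass the threshold in this design.

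Of 10 other mitophagy receptors and regulators, 5 rose and 1 fell (median log2 difference 0.26), against 30.6% and 21.4% of all tested genes. In either direction their share of calls was near the 52.0% of all tested genes. The autophagy receptor SQSTM1, or p62, was at 204, 207 and 209 FPKM with Agrimol B, against 132, 124 and 131 FPKM in control cells (adjusted p = 6.53e-05). Receptors OPTN and CALCOCO2 rose 1.74-fold and 1.54-fold. PINK1, the kinase that marks damaged mitochondria, was the gene that fell. PINK1 had 15.4, 15.3 and 14.6 FPKM with Agrimol B, against 29.5, 30.6 and 29.6 FPKM in control cells, a 1.98-fold lower mean (adjusted p = 3.96e-05).

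CA9 encodes carbonic anhydrase IX, a surface enzyme that acidifies the medium and is among the most specific markers of HIF-1 activity in tumours. It was listed at 0, 0 and 0.0815 FPKM with Agrimol B, and at 0.155, 0 and 0.0262 FPKM in control cells. No library reached 0.2 FPKM, and a change in either direction was not detectable at this level. ARHGEF39 overlaps CA9 on the other strand, with 3.63 to 4.35 FPKM in Agrimol B libraries and 7.65 to 8.65 FPKM in control libraries. Since the strand setting of the counting is unknown, reads of ARHGEF39 cannot be told apart from those of CA9. Of the other carbonic anhydrases and acid exporters, 2 of 10 tested genes rose and 3 fell, against 30.6% and 21.4% of all tested genes. In either direction their share of calls was near the 52.0% of all tested genes. The membrane enzyme CA12, also a known hypoxia target, had 0.802, 1.33 and 1.41 FPKM with Agrimol B, against 2.81, 1.52 and 2.95 FPKM in control cells (adjusted p = 0.0416). That call was lost in 6 of 12 alternatives (adjusted p 0.00849 to 0.116), the replicate block (0.0665) and every omission of a library other than control replicate 2 among them. The cytosolic CA2 fell 1.68-fold and CA11 1.47-fold (adjusted p = 0.00114 and 0.00254).

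ADM encodes adrenomedullin, a secreted peptide that widens vessels. ADM (chromosome 11, 10304680 to 10307397, plus strand) had 15.1, 15.1 and 12.2 FPKM with Agrimol B, against 29.7, 19.1 and 18.5 FPKM in control cells. All treated values were below all control values, and control replicate 1 lay far above the other controls. The mean was 14.1 ± 1.69 FPKM with Agrimol B and 22.4 ± 6.30 FPKM in control cells (SD, n = 3 each; log2 difference -0.60, SE 0.19, limma adjusted p = 0.0396). Without control replicate 1 the log2 difference was -0.39 (adjusted p = 0.0343). The call was lost without any 1 of the Agrimol B libraries (adjusted p = 0.0709 to 0.113; 0.0253 to 0.113 over all alternatives). The related peptide ADM2 moved the other way, with 11.9, 12.3 and 7.80 FPKM in Agrimol B libraries and 1.66, 2.51 and 2.75 FPKM in control libraries (log2 difference 1.81, adjusted p = 0.000751). PAM, the enzyme that amidates such peptides, rose 1.31-fold. RAMP1, which can pair with the receptor protein CALCRL, fell 1.86-fold. Another such partner, RAMP2, did not pass the test (adjusted p = 0.567). It had 3.43 to 6.52 FPKM with Agrimol B and 4.41 to 5.49 FPKM in control cells. ACKR3, a scavenging receptor, fell 2.89-fold at a low level (0.784 ± 0.323 FPKM with Agrimol B, 2.26 ± 0.706 FPKM in control cells). The receptor gene CALCRL was at most 0.104 FPKM.

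KDM3A encodes an oxygen-dependent enzyme that removes methyl groups from lysine 9 of histone H3. It had 6.78, 7.79 and 9.22 FPKM with Agrimol B, against 5.65, 5.11 and 4.71 FPKM in control cells. Each treated value exceeded each control value, with a wider spread among the treated libraries. The mean of KDM3A (chromosome 2, 86440647 to 86492716, plus strand) was 1.54-fold higher with Agrimol B, at 7.93 ± 1.23 FPKM, than the 5.16 ± 0.469 FPKM of control cells (SD, n = 3 each; log2 difference 0.53, SE 0.11, limma adjusted p = 0.00988). Its close relative KDM3B, chosen after its values were seen, did not pass the test (adjusted p = 0.136). KDM3B had 13.7 to 15.9 FPKM with Agrimol B and 15.0 to 18.5 FPKM in control cells. JMJD1C, also called KDM3C, rose as KDM3A did. It was at 33.8 ± 1.14 FPKM with Agrimol B and 18.9 ± 0.746 FPKM in control cells (adjusted p = 8.94e-05). The KDM3A to KDM3B ratio was 0.495 to 0.580 with Agrimol B and 0.276 to 0.314 in control cells. A ratio of KDM3A to JMJD1C was not taken. Of 16 other demethylase genes of the same JmjC fold, 12 rose and 0 fell, against 30.6% and 21.4% of all tested genes. The median log2 difference of these 16 was 0.42. With median-ratio scaling or quantile normalization 10 rose and 0 fell, and without control replicate 3 the count was 10 rises and 1 fall. KDM6B, which acts on lysine 27 of histone H3, had 16.2, 15.2 and 15.6 FPKM with Agrimol B, against 4.38, 3.85 and 4.88 FPKM in control cells (adjusted p = 4.74e-05). KDM7A rose 2.40-fold, JMJD1C 1.78-fold and KDM4C 1.78-fold.

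ANKRD37, a small ankyrin-repeat protein induced by HIF-1, was low in both groups. It had 3.01, 4.83 and 2.75 FPKM with Agrimol B, against 2.02, 2.36 and 1.83 FPKM in control cells. The groups did not overlap, but Agrimol B replicate 2 stood well above the other treated libraries. The mean of ANKRD37 (chromosome 4, plus strand) was 3.53 ± 1.13 FPKM with Agrimol B and 2.07 ± 0.267 FPKM in control cells (SD, n = 3 each; log2 difference 0.54, SE 0.18, limma adjusted p = 0.0452). Without Agrimol B replicate 2 the log2 difference was 0.34, still past the threshold (adjusted p = 0.0414). The call was lost in 7 of 12 alternatives, among them both other scalings, testing all genes without a filter, and leaving out any control library or Agrimol B replicate 1 (adjusted p 0.0215 to 0.120 over all). ANKRD37 overlaps UFSP2 on the other strand, which had 10.5 to 11.4 FPKM with Agrimol B and 9.52 to 11.2 FPKM in control cells.

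NDRG1 encodes a cytoplasmic protein induced by hypoxia, metals and differentiation. It had 4.73, 6.83 and 7.95 FPKM with Agrimol B, against 7.78, 13.9 and 6.88 FPKM in control cells. The groups overlapped, and control replicate 2 stood far above the other controls. The log2 difference of NDRG1 was -0.45 with a 95% interval of -1.14 to 0.23 (adjusted p = 0.220), and without control replicate 2 it was -0.17 (adjusted p = 0.517; 0.137 to 0.517 over all alternatives). The pooled SD of NDRG1 between libraries of a group, 0.419 on the log2 scale, exceeded that of 96.8% of tested genes, whose median was 0.0963. ADM and ANKRD37 were also in the variable part of the range, above 92.1% and 90.0% of tested genes, while BNIP3 and BNIP3L exceeded only 12.9% and 15.6%. Of the other NDRG genes, NDRG2 fell 2.05-fold and NDRG3 1.76-fold (adjusted p = 0.00842 and 0.0376), and NDRG4 overlapped between the groups (adjusted p = 0.829). NDRG3 lost its call without any 1 library except control replicate 3, which was the lowest control at 12.3 FPKM against 20.4 and 21.2 FPKM (adjusted p = 0.0601 to 0.106; 0.00550 to 0.106 over all alternatives).

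**Figure D3:**
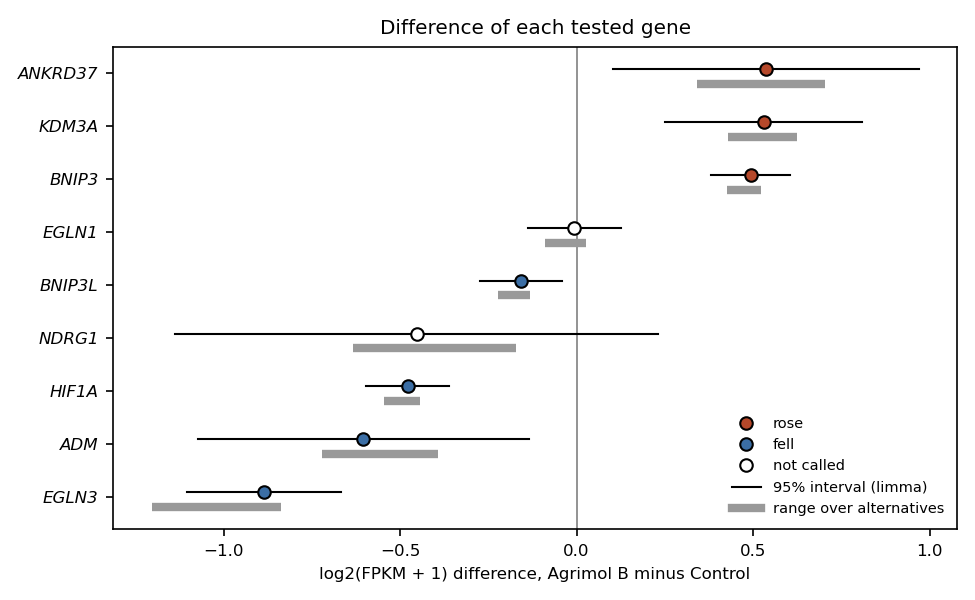
Difference in log2(FPKM + 1), Agrimol B minus control, of the 9 tested genes, with limma's 95% interval (black line) and the range over the alternative settings (grey bar). Intervals of EGLN1 and NDRG1 include 0, and the grey bar crosses 0 for EGLN1 alone.

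Levels also gave an order among the 10 genes. In Agrimol B libraries it ran from HIF1A through BNIP3, BNIP3L, ADM, EGLN1, KDM3A, NDRG1, ANKRD37 and EGLN3 to CA9, by mean FPKM. In control libraries BNIP3L and ADM stood above BNIP3, NDRG1 above KDM3A, and EGLN3 above ANKRD37. Some neighbours in this order had overlapping values. In control cells these were ADM with BNIP3L or BNIP3, and EGLN1 with NDRG1. In Agrimol B cells they were KDM3A with NDRG1, and NDRG1 with ANKRD37.

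The wider set of hypoxia targets also moved in both directions. Of 36 tested targets outside glycolysis, 15 rose and 9 fell, against 30.6% and 21.4% of all tested genes. The median log2 difference of these 36 was 0.11. Falls numbered 5 without Agrimol B replicate 2, without control replicate 1 or with the 5 FPKM filter, and 6 with the replicate block or without Agrimol B replicate 1 or control replicate 2. The largest differences were rises. VEGFA, the main angiogenic growth factor, had 43.7, 46.0 and 44.5 FPKM with Agrimol B, against 11.7, 8.14 and 9.25 FPKM in control cells (adjusted p = 7.26e-05). The mTORC1 inhibitor DDIT4 and the secreted glycoprotein STC2, both also known as targets of the stress factor ATF4, were at 54.3 ± 1.10 and 80.8 ± 1.62 FPKM with Agrimol B, against 12.5 ± 0.826 and 22.7 ± 0.624 FPKM in control cells (adjusted p = 1.16e-05 and 6.74e-06). LOX, which cross-links collagen, was at 34.8 ± 0.294 FPKM with Agrimol B and 10.4 ± 0.536 FPKM in control cells (adjusted p = 1.28e-05).

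Of 25 targets in glucose uptake and glycolysis, 3 rose and 11 fell, against 30.6% and 21.4% of all tested genes. In either direction their share of calls was near the 52.0% of all tested genes. The median log2 difference of these 25 was -0.14. With median-ratio scaling 15 fell, and with the replicate block 8 fell. LDHA, which makes lactate, had 277, 232 and 284 FPKM with Agrimol B, against 365, 454 and 436 FPKM in control cells (adjusted p = 0.00375). The aldolase ALDOC fell 2.65-fold, while HK2, which traps glucose in the cell, and ENO2, an enolase, had means 2.64-fold and 1.97-fold higher with Agrimol B (adjusted p = 1.46e-05 and 0.000814). Over the 118 tested genes of all these lists, 43 rose and 30 fell, against 30.6% and 21.4% of all tested genes. The median log2 difference of the 118 was 0.08. The lists were chosen with earlier results of these data known, and no set test was made.

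**Figure D4:**
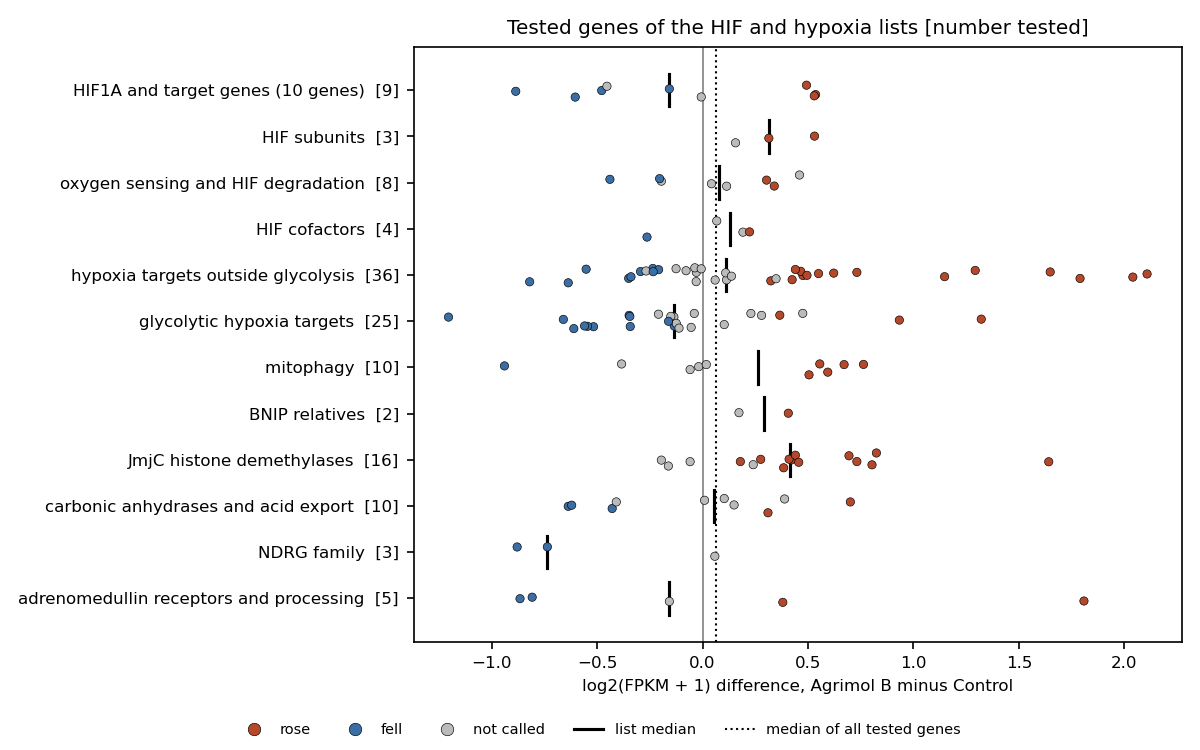
Difference in log2(FPKM + 1), Agrimol B minus control, of each tested gene of the 10-gene set and of 11 lists around it; colours give the call, black bars the list medians and the dotted line the median of all tested genes (0.07). Genes outside glycolysis reach 2.11 (VEGFA), and the JmjC demethylases are the list with 12 rises and 0 falls. Of all tested genes, 30.6% rose and 21.4% fell.

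The libraries were alike in scale. Total FPKM lay between 352990 and 359537, and 11993 to 12134 genes reached 1 FPKM in a library. Relative sequencing depth, read from the steps of very low values, was 1.00 to 1.19 with Agrimol B and 0.99 to 1.04 in control cells, taking control replicate 1 as 1. Read numbers are unknown, so no counting error can be given. Correlation of log2(FPKM + 1) was 0.9861 to 0.9884 within groups and 0.9468 to 0.9504 between them. Of the markers of the labelled cell type, VIM, SPARC, COL1A1, COL1A2, ALPL and RUNX2 were present in all 6 libraries, and all but RUNX2 fell with Agrimol B. VIM was at 532 to 546 FPKM with Agrimol B and at 700 to 712 FPKM in control cells, and COL1A1 at 286 to 307 FPKM with Agrimol B and at 411 to 436 FPKM in control cells. Their part in the differences of the hypoxia genes was not tested. The leukocyte marker PTPRC was at 0 in 5 of 6 libraries and 0.0578 FPKM in the other. The endothelial PECAM1 and CDH5 reached at most 0.0391 and 0.410 FPKM, and the epithelial CDH1 0.439 FPKM, but the epithelial marker EPCAM was present at 12.8 to 14.7 FPKM, with no difference that passed the test (adjusted p = 0.805).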

How the data were processed

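Per the labels' protocols, RNA was taken up in TRIzol and a stranded kit for mRNA was used. The authors deposited FPKM values for 6 libraries in 1 table. Of tools, HISAT, Trimmomatic, cutadapt and FastQC appear in the submitters' processing notes, with build hg38. The sources used here do not name the program or annotation behind the FPKM values. Control columns carry the letters of the sample descriptions in the other order and were matched by number.

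Values were analysed as log2(FPKM + 1). limma 3.58.1 in R 4.3.3 fitted a group term to the 12143 genes whose mean reached 1 FPKM. Its moderated two-sided test used a variance trend, p-values were adjusted over all these genes by Benjamini-Hochberg, and the threshold was 0.05. Folds are ratios of mean FPKM. On this log scale the change of low genes is understated. The limma fit alone was also run on simulated libraries, with far fewer changed genes than were called here. Its outcome is not reported, and the other steps were not simulated. Python 3.11.15 with pandas 2.3.3, numpy 2.4.6 and matplotlib 3.10.9 served the other steps. Positions are from GENCODE 29 (GRCh38), promoters from RefSeq. The genes and lists were chosen with earlier results of these data known. Named from each list were up to 4 changed genes with the largest differences and no overlap. All genes of 4 small lists were also named (HIF subunits, oxygen sensing, BNIP relatives, NDRG family). The list called BNIP relatives was made by name only. HIF3A, RAMP3 and SP7 were not analysed here. One gene that the rule names is not reported here. Alternatives were another pseudocount (0.1), other filters (none, 5 FPKM), 2 scalings, a replicate block, no variance trend and leaving out each library.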

Additional observations from a re-analysis of the deposited data

How the results depend on the processing

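Over all genes 6311 changed, with 4735 to 6882 under the 13 alternatives, and over the wider lists 73, with 59 to 76. Of the 10 genes, 7 changed, with 4 to 6 when 1 library was left out (4 without Agrimol B replicate 1, which lost BNIP3L, ANKRD37 and ADM) and 5 to 7 under the other settings. The 5 FPKM filter removed EGLN3 and ANKRD37 from the test. Signs turned only for genes that were not called, among those named with a test: EGLN1 (0.027 without Agrimol B replicate 3, 0.015 without control replicate 2, from -0.034 to 0.027 over single omissions), CUL2 (-0.021 with median-ratio scaling, -0.036 with quantile normalization) and NDRG4 (-0.016 with quantile normalization, -0.099 and -0.011 without control replicate 2 and 3, up to 0.285 without control replicate 1). The cause was not tested. Of 35 other named genes called, 30 kept their call throughout, and EPAS1, ELOB, P4HTM, CA12 and NDRG3 lost it in at least 1 alternative. Replicate numbers are shared by the groups, but same-numbered libraries did not deviate together (r = 0.037, -0.0058 and -0.015). Nor did every library correlate best with its own number. The labels do not say that libraries were paired, and such correlations cannot exclude a shared culture or preparation. With the replicate block 5776 genes changed, 6 of the 10 genes (BNIP3L lost) and 64 of the wider lists. Quantile and median-ratio scaling moved the median of all genes by -0.06 (log2). Without a filter on low values ANKRD37 lost its call (adjusted p = 0.0560), and CA9 had an adjusted p of 0.622, at values that may rest on a few reads.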
